A study of Mus musculus with 18 samples.

Results

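The genes described here are 45 genes of DNA replication and of the E2F programme, taken by name from a list, of 55401 gene identifiers in the count table. All 45 were found in the table and all 45 passed the filter on low counts in both series. Poly(A) RNA of 18 cultures of primary mouse embryonic fibroblasts (MEFs), grown from C57BL/6 embryos without head and viscera, was sequenced in 6 groups of 3 libraries. In the S6K1 series the groups were wild-type cells with an empty retroviral vector (WT EV), wild-type cells with a retrovirus for oncogenic HRAS (WT RAS) and S6K1 knockout cells with the same RAS virus (KO RAS). In the S6K1/S6K2 series the groups were WT EV, WT RAS and cells without both kinases (DKO RAS). Both are ribosomal S6 kinases acting below mTORC1, with S6K1 encoded by Rps6kb1 and S6K2 by Rps6kb2. All 18 cultures carried a retroviral vector and drug selection, and KO or DKO cells with the empty vector were not analysed here. The S6K1 WT and KO embryos were littermates, whereas the WT embryos matched to the DKO came from separate WT mothers, and the viral RAS was driven by the vector and not by its own promoter. Per the study, the MEFs transduced with EV or RAS came from independent pairs of embryos of different mothers, so the 3 libraries of a group are taken as separate embryos, although the labels give only a replicate number.

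A cell copies its genome once per cycle. In G1 the origin recognition complex, of which Orc6 is a subunit, Cdc6 and Cdt1 load the Mcm2-7 helicase onto origins, and geminin (Gmnn) blocks further loading once S phase has begun. Firing recruits Mcm10, Cdc45 and the GINS complex to the helicase, after which primase and the polymerases, the sliding clamp PCNA, the clamp loader, the single-strand binding protein RPA and the enzymes of the lagging strand synthesise DNA. Many of these genes are activated at the G1/S border by E2F factors with cyclin E and are held off by the RB family in quiescent and senescent cells. Oncogenic RAS is a classical inducer of senescence in primary fibroblasts.

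E2F factors bind a short consensus near the start of their targets. The window from 250 bases before to 50 bases after the annotated start was searched for TTTCCCGC, TTTCGCGC, TTTGCCGC and TTTGGCGC on both strands, and overlapping matches were kept. RefSeq promoters on GRCm38.p6 were matched by symbol for 37 of the 45 members. The consensus was present for 16 of these 37 members (43.2%) and for 704 of all 27025 genes with a promoter (2.6%). A CCAAT box (CCAAT on either strand) was present for 22 of the 37 members (59.5%) and for 41.1% of all genes. The CHR element of G2/M genes (TTTGAA or TTCGAA) was present for 9 of the 37 (24.3%) and for 21.7% of all genes. The matches are letters in a window, not measured binding. The last 180 bases before the start are shown for Cdc6, Mcm5, Mcm6, Mcm7 and Pola1. These 5 members fell under RAS in the S6K1/S6K2 series and hold an E2F match in these bases. Pcna, which fell in that series and holds none, and E2f1, which was not called, are also shown. For E2f1 the only matched start lies inside the gene, since the first part of its line reads as E2f1 coding sequence. The promoter before the first E2f1 exon was not searched, so the lack of a match is not a result about it. In the S6K1 series no member was called by the fit with group alone. With the replicate number as a block, 8 were called lower there, where 18.1% of all genes were. Capitals mark the E2F consensus (8 letters, longer where matches overlap) and the CCAAT box (5 letters), and each line is written in the direction of transcription.
Cdc6: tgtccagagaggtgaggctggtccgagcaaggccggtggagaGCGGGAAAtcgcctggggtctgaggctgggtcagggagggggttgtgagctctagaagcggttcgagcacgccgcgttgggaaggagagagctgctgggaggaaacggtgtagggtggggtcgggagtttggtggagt
Mcm5: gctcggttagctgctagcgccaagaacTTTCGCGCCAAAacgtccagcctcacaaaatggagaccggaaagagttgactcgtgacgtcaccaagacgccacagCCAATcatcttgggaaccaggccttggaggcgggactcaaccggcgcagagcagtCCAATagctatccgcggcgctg
Mcm6: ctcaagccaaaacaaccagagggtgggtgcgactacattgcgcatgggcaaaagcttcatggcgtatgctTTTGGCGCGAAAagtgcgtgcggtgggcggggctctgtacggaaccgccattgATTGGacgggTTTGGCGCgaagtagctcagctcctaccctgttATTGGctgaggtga
Mcm7: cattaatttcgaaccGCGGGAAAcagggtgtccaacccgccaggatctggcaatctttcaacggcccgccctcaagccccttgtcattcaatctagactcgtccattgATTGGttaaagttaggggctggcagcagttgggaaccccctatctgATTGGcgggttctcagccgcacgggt
Pola1: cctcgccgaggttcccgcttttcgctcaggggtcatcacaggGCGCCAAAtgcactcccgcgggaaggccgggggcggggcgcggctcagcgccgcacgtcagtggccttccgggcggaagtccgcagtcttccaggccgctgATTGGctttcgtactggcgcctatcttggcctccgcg
Pcna: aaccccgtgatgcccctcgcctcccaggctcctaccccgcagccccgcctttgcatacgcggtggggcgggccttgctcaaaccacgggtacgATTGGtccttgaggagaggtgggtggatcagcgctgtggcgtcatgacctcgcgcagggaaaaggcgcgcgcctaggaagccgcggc
E2f1: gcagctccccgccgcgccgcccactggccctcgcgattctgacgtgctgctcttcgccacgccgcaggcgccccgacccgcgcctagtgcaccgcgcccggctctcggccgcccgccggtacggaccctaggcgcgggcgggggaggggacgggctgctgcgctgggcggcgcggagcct
The positions on GRCm38.p6 are chr11:98907971-98908150 (plus strand) for Cdc6, chr8:75109329-75109508 (plus) for Mcm5, chr1:128359706-128359885 (minus) for Mcm6, chr5:138171884-138172063 (minus) for Mcm7, chrX:93632156-93632335 (minus) for Pola1, chr2:132253181-132253360 (minus) for Pcna and chr2:154569427-154569606 (minus) for E2f1. In Mcm5 a pair of overlapping matches on opposite strands forms 1 stretch, and Mcm6 holds such a stretch and a further match nearer to the start. Of the 19 members with a promoter that were called lower under RAS in the S6K1/S6K2 series, 8 held the E2F consensus, and of the other 18 members with a promoter, 8 did. The CCAAT box was held by 12 of the 19 and 10 of the 18, and the CHR element by 2 of the 19 and 7 of the 18. These are counts without a test, and E2f1 enters them and those above by its start inside the gene. A gene with more than 1 listed start was counted where any of its starts held the match. Dnmt1 and Uhrf1 held the E2F consensus only at a start downstream of another listed start.

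Total counts per library were between 8319445 and 14402442, and levels are given as CPM (library-size scaled counts), with scaling factors estimated in each series by itself. Rps6kb1 was between 23.6 and 37.0 CPM in KO RAS against 61.6 to 74.6 CPM in WT RAS (log2 fold change -1.17, edgeR adjusted p = 0.234) and between 34.5 and 39.7 CPM in DKO RAS against 75.5 to 83.7 CPM in WT RAS (log2 fold change -1.11, edgeR adjusted p = 0.00908). Rps6kb2 was between 2.68 and 3.04 CPM in DKO RAS and between 24.1 and 28.9 CPM in its WT RAS (edgeR adjusted p = 7.44e-05). Summed fibroblast markers (9 genes) were between 30019 and 48253 CPM over both WT EV groups and between 13262 and 18104 CPM over the 4 RAS groups, with Col1a1, Col1a2, Col3a1 and Pdgfrb lower under RAS in both series and Lum higher in the S6K1 series. Summed epithelial markers (5 genes) were between 8.05 and 18.2 CPM in WT EV and between 79.1 and 209 CPM under RAS, with Krt8, Krt18 and Epcam higher in both series. Of the 5 endothelial markers 3 were tested, and Cdh5 was called higher under RAS in both series, whereas Tek was called lower in the S6K1/S6K2 series. Of the 4 muscle markers only 1 was tested, it was not called, and at least 2 of the 4 were at 0 throughout each group. Summed macrophage markers (13 genes, none of them at 0 in any whole group) were between 614 and 3088 CPM in WT EV, 690 and 3554 CPM in WT RAS and 237 and 840 CPM in KO RAS of the S6K1 series, and between 155 and 1353, 171 and 976, and 72.6 and 228 CPM in the same order in the S6K1/S6K2 series. No macrophage marker was called in any comparison, and the part of these cells in the values below was not tested.

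To examine replication genes under oncogenic RAS, WT RAS was compared with WT EV within each series. In the S6K1/S6K2 series, 21 of the 45 members (46.7%) fell under RAS and none rose. Among all 13881 genes tested in that series, 12.7% were called lower and 13.5% higher. Over the members the median log2 fold change was -0.74 against -0.02 for all genes, and 44 of 45 members had a negative value, the exception being E2f1. In 25 of the 45 members all 3 RAS libraries lay below all 3 EV libraries, against 21.7% of all genes tested. By contrast, edgeR with group alone, without the replicate block given below, called none of the 45 members in the S6K1 series in either direction. In that series 6.09% of all 14036 genes were called lower and 7.15% higher. There 6 members had an unadjusted p under 0.05, all of them lower (6 also with DESeq2, which called 0), the median was -0.14 against 0.00 for all genes, and 31 of 45 values were negative. In 7 of the 45 members the RAS libraries lay below all EV libraries, against 15% of all genes. In whole cultures, fewer cells in S phase and less RNA of these genes per cell cannot be told apart.

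**Figure D1:**
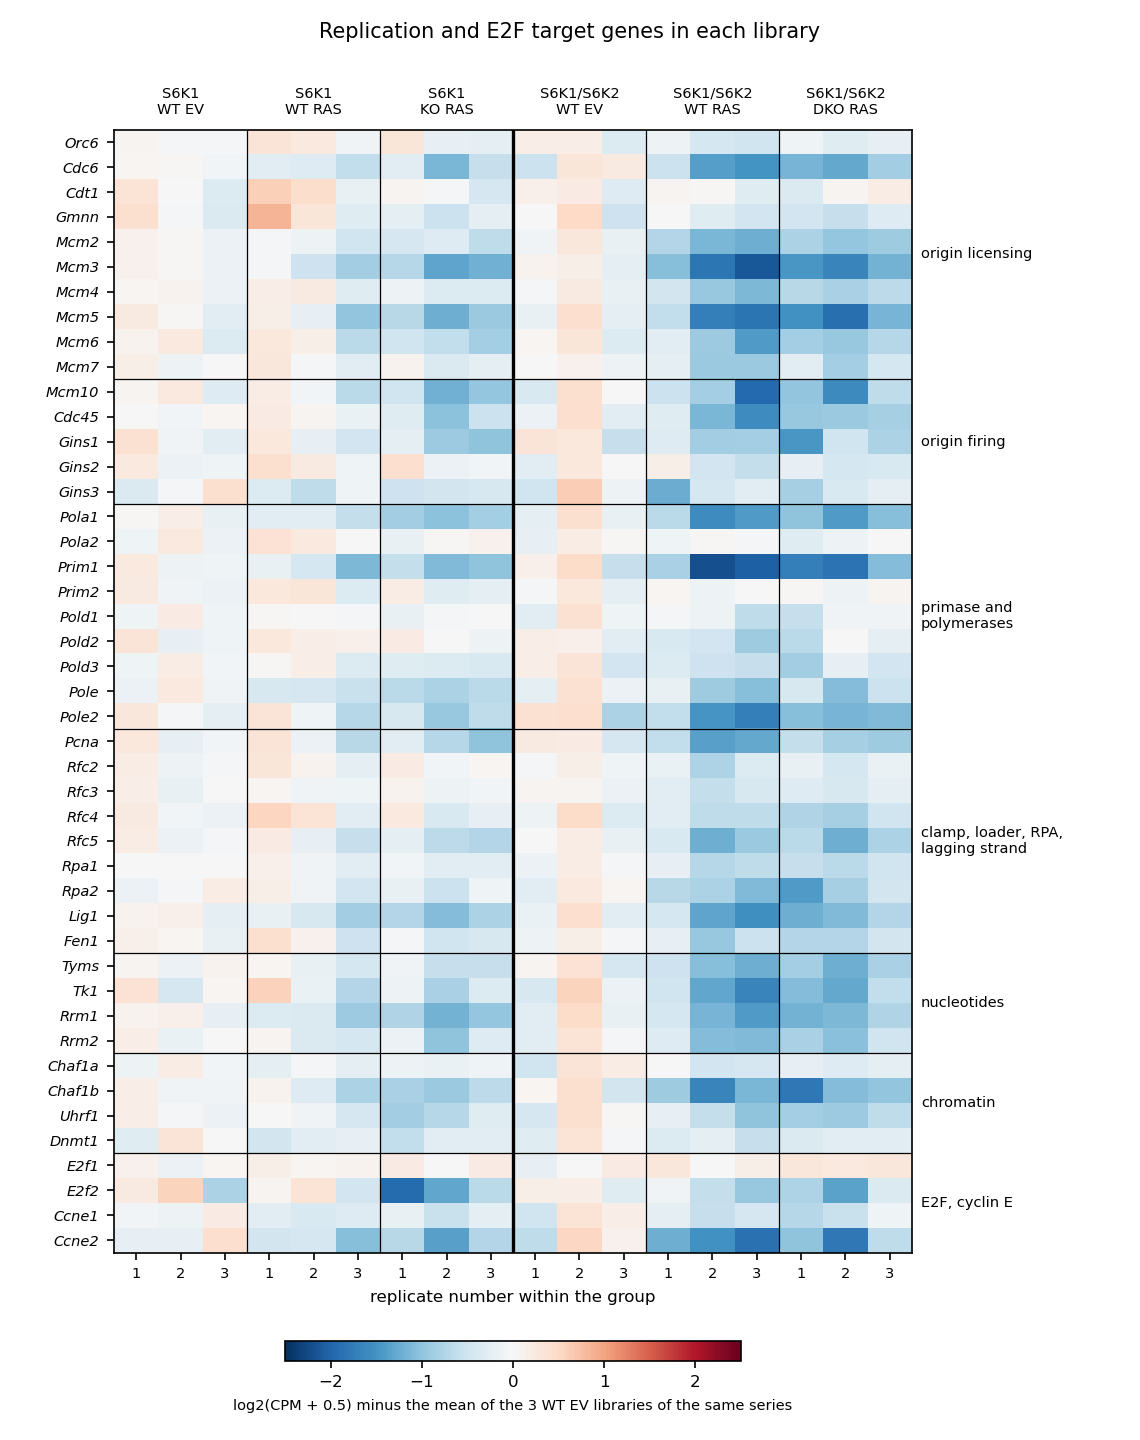
Level of the 45 members (rows, ordered by role) in the 18 libraries (columns, replicates 1 to 3 of each group), as log2(CPM + 0.5) minus the mean of the 3 WT EV libraries of the same series. Blue is lower than WT EV and red higher. Replicates 2 and 3 of S6K1/S6K2 WT RAS are the bluest WT columns, and the E2f1 row stays near 0 throughout.

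The median change of the members was not the same in each culture. When RAS and EV libraries with the same replicate number were subtracted, the median member changed by -0.24, -1.10 and -0.76 (log2) for numbers 1, 2 and 3 of the S6K1/S6K2 series, with 36, 44 and 42 of the 45 members lower. The same differences were 0.03, -0.07 and -0.32 in the S6K1 series, with 21, 29 and 37 members lower. Thus number 3 moved most in the S6K1 series, and the median for number 1 was not below 0. The macrophage markers also differed by number. Their sum in EV was 3088, 2291 and 614 CPM for numbers 1, 2 and 3 of the S6K1 series and 1353, 155 and 200 CPM for those of the S6K1/S6K2 series. With RAS it was 3554, 3145 and 690 CPM and 976, 171 and 249 CPM. In both series the numbers with the lower sums were thus those with the lower median change, and the part of these cells in the change was not tested. Among the EV libraries of the S6K1/S6K2 series, replicate 2 had the highest value for 39 of the 45 members. WT RAS replicate 1 was the highest of its group for 42 members. WT RAS replicate 3 of the S6K1 series was the lowest of its group for 41 members. Across all 6 numbers, 14 members were lower under RAS each time, namely Cdc6, Mcm2, Mcm3, Mcm5, Gins1, Pola1, Prim1, Lig1, Tyms, Rrm1, Rrm2, Chaf1b, Dnmt1 and Ccne2. Some of these differences were near 0. For number 1 of the S6K1/S6K2 series they were -0.0068 for Cdc6, -0.027 for Dnmt1 and -0.035 for Rrm2 (log2). No member was higher in all 3 numbers of the S6K1/S6K2 series, and 4 were in the S6K1 series. The shares of all genes for these counts are not given here, so the counts are not set against a background. The median SD of the members within a group was 0.37 (log2) in S6K1/S6K2 WT RAS against 0.20 for all genes tested, whereas in S6K1 WT EV it was 0.18 against 0.22.

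The count of 21 rested on single libraries. Leaving out WT EV replicate 2 gave 6 calls, and leaving out replicate 2 or replicate 3 of WT RAS gave 5 each. The count did not fall without WT EV replicate 1 (21), WT EV replicate 3 (23) or WT RAS replicate 1 (25). It was 11 when the 6 compared libraries were fitted alone. The shares of all genes called in these fits are not given here. A lower count is therefore not shown to be particular to the members. Mcm2, Mcm3, Mcm4 and Pcna were called in all 16 fits made for this comparison and Ccne2 in 15 of them. With the replicate number as a block over 9 libraries, 18 members were called lower (13.7% of all genes were), all of them among the 21. Cdc6, Tk1 and Rrm2 were lost. That block also ties the DKO libraries to the WT libraries of equal number. A block over the 6 WT libraries alone called 18 members, 17 of them among the 21. The block mattered more in the S6K1 series, where same-numbered libraries varied together most, and it moved the count from 0 to 8 members lower (17.8% of the members against 18.1% of all genes). These were Mcm3, Pola1, Prim1, Pole, Lig1, Rrm1, Dnmt1 and Ccne1. That share is near the background of the fit.

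**Figure D2:**
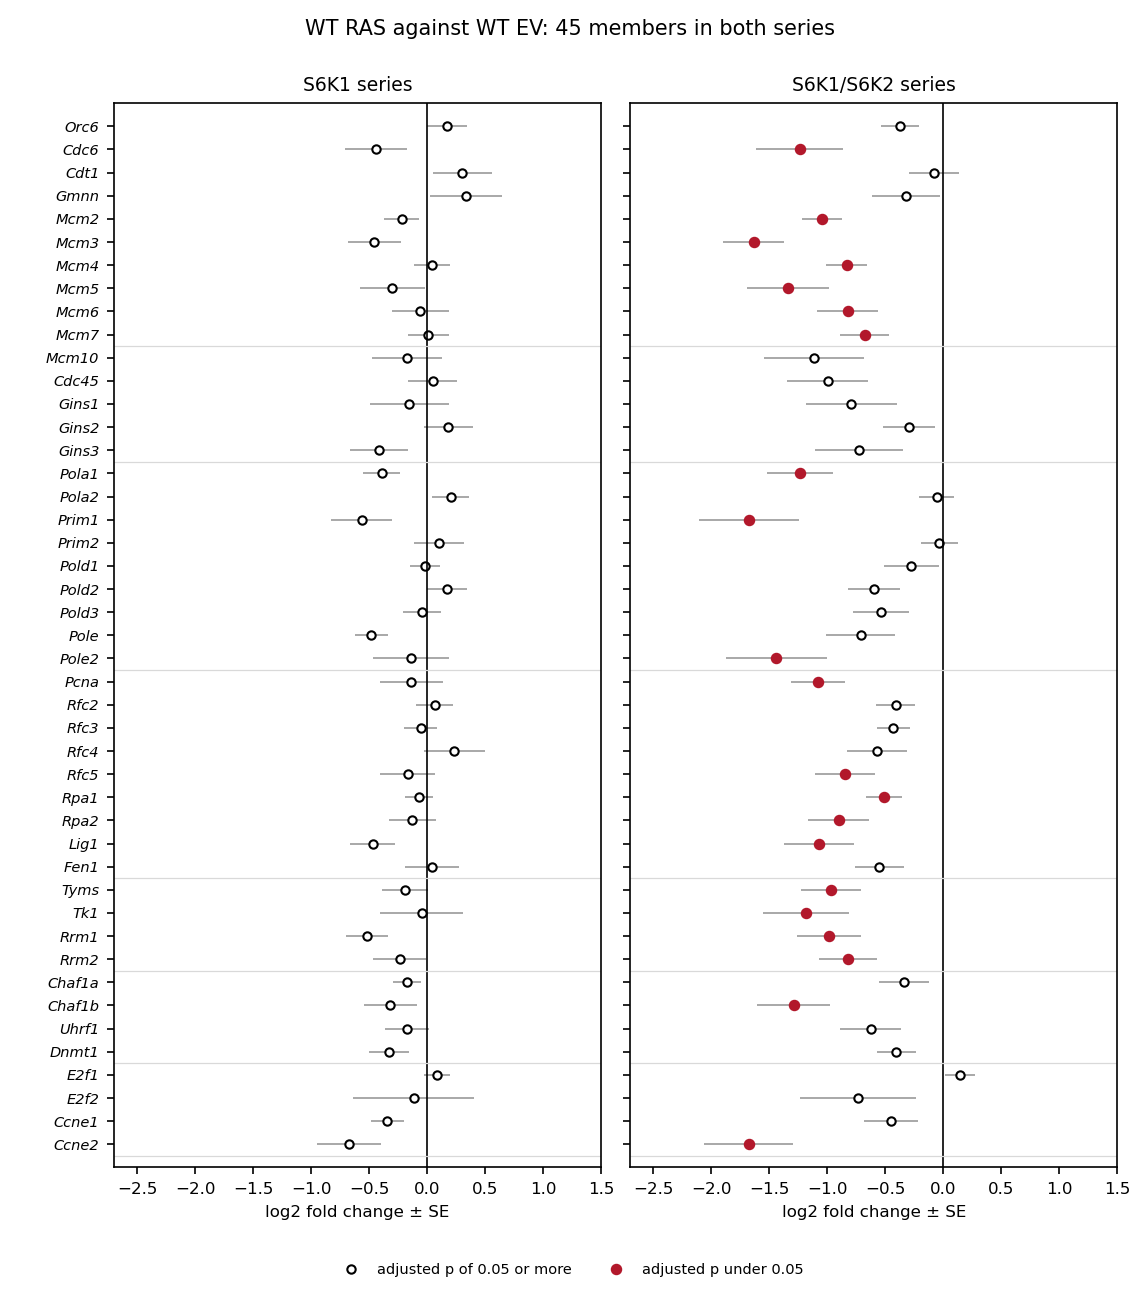
Log2 fold change of WT RAS against WT EV for each of the 45 members (points, with bars of 1 SE) in the S6K1 series (left) and the S6K1/S6K2 series (right). Filled points have an adjusted p under 0.05 in the edgeR fit with group alone. No point is filled on the left and 21 are filled on the right, all of them below 0.

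Of the 10 licensing genes, 7 fell under RAS in the S6K1/S6K2 series, namely Cdc6 and the 6 subunits of the Mcm2-7 helicase. The median over the group was -0.83, and 12.7% of all genes were called lower in that series. Mcm3 was at 51.8, 54.6 and 41.7 CPM in WT EV and at 23.2, 13.7 and 10.8 CPM in WT RAS. All 3 RAS values lay far below the EV values, and the change was -1.63 ± 0.26 (log2, SE, edgeR adjusted p = 0.00228). The S6K1 series had Mcm3 at 45.2, 42.8 and 37.8 CPM in WT EV and at 40.2, 29.0 and 22.7 CPM in WT RAS. There the groups overlapped (-0.46 ± 0.23, edgeR adjusted p = 0.243), and with the replicate block the value was -0.48 with an edgeR adjusted p of 0.0142. Mcm2 was at 51.6, 67.1 and 48.3 CPM in EV and 33.1, 24.5 and 23.3 CPM with RAS in the S6K1/S6K2 series. That was a change of -1.05 ± 0.17 (edgeR adjusted p = 0.0025). Mcm2 values in the S6K1 series were 53.8, 51.0 and 45.2 CPM against 48.5, 45.5 and 34.9 CPM, which overlapped (-0.22 ± 0.15, edgeR adjusted p = 0.405). Mcm5, a subunit at the gate through which the helicase ring closes on DNA, was at 26.8, 41.5 and 26.0 CPM in EV and at 19.9, 9.05 and 8.34 CPM with RAS in the S6K1/S6K2 series. The groups were apart there (-1.34 ± 0.35, edgeR adjusted p = 0.0207), and the call held in 13 of 16 fits. Mcm5 in the S6K1 series was at 32.1, 27.9 and 22.4 CPM against 30.2, 23.5 and 13.4 CPM, with overlap (-0.30 ± 0.28, edgeR adjusted p = 0.546).

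Mcm4 fell by 0.83, Mcm6 by 0.82 and Mcm7 by 0.68 on the log2 scale in the S6K1/S6K2 series, and Mcm6 and Mcm7 kept the call in 11 of 16 fits each. The RAS and EV libraries of Mcm6 overlapped, since WT RAS replicate 1 (59.97 CPM) was above WT EV replicate 3 (57.0 CPM). Cdc6, the loader ATPase, was at 4.45, 8.31 and 7.87 CPM in EV and at 4.43, 2.26 and 2.04 CPM with RAS in that series. Number 1 of Cdc6 was thus nearly the same in both conditions, while numbers 2 and 3 fell (-1.24 ± 0.38, edgeR adjusted p = 0.0375, called in 9 of 16 fits). Cdc6 in the S6K1 series was at 5.498, 5.44 and 5.04 CPM in EV and 4.35, 4.13 and 3.29 CPM with RAS. Those groups did not overlap, but the change did not pass the test (-0.44 ± 0.26, edgeR adjusted p = 0.334). The other 3 licensing genes were not called. Cdt1, the partner of Cdc6 in loading, was at 15.3, 16.1 and 11.1 CPM in EV and 14.7, 14.3 and 11.3 CPM with RAS in the S6K1/S6K2 series. It was at 17.2, 13.5 and 10.6 CPM against 20.7, 18.6 and 11.8 CPM in the S6K1 series. The Cdt1 values overlapped in both series (-0.08 ± 0.22, edgeR adjusted p = 0.821, and 0.30 ± 0.26, edgeR adjusted p = 0.5). Gmnn, the inhibitor of Cdt1, and Orc6 also overlapped between the groups in both series.

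None of the 5 firing genes was called in either series by edgeR, although all 5 had negative values in the S6K1/S6K2 series (-0.29 to -1.12), 2 with an unadjusted p under 0.05. DESeq2 called 1 of them lower there and 0 in the S6K1 series, where 0 had an unadjusted p under 0.05. Cdc45, which joins the helicase at firing, was at 10.6, 15.8 and 9.53 CPM in EV and 9.40, 5.002 and 3.61 CPM with RAS there. The RAS values were all lower, by a narrow margin for number 1, and the change was -0.997 ± 0.35 (edgeR adjusted p = 0.0591, called in 5 of 16 fits). Cdc45 in the S6K1 series was at 9.40, 8.94 and 9.71 CPM in EV and 10.8, 9.89 and 8.27 CPM with RAS, with overlap (0.05 ± 0.21, edgeR adjusted p = 0.912). Gins3, a subunit of the GINS complex, was the firing gene with the smallest p in the S6K1 series. It was at 4.73, 6.04 and 8.34 CPM against 4.78, 3.82 and 5.70 CPM there, and at 5.24, 11.9 and 6.91 CPM against 2.92, 5.48 and 6.12 CPM in the S6K1/S6K2 series. The values overlapped in both (-0.41 ± 0.25, edgeR adjusted p = 0.343, and -0.73 ± 0.38, edgeR adjusted p = 0.183).

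Of the 9 primase and polymerase genes, 3 fell under RAS in the S6K1/S6K2 series. Pola1, the catalytic subunit of polymerase alpha, was at 17.9, 28.0 and 18.5 CPM in EV and 12.97, 6.79 and 7.598 CPM with RAS. The groups were apart (-1.24 ± 0.28, edgeR adjusted p = 0.0119). Pola1 in the S6K1 series was at 18.7, 20.6 and 15.9 CPM against 15.03, 15.3 and 11.9 CPM, which were also apart but did not pass the test (-0.39 ± 0.16, edgeR adjusted p = 0.151). With the replicate block the edgeR adjusted p of Pola1 was 0.0382 in that series. Prim1, the catalytic primase subunit, fell by 1.68 and Pole2, a subunit of polymerase epsilon, by 1.44 (log2) in the S6K1/S6K2 series. Prim2, the partner of Prim1 in the primase, had a log2 fold change of -0.03 in the same comparison and was not called. Pole, the catalytic subunit of the leading-strand polymerase, was the member with the smallest p in the S6K1 series. It was at 18.4, 24.2 and 19.3 CPM in EV and 15.4, 15.2 and 13.8 CPM with RAS. The groups did not overlap (-0.48 ± 0.14, edgeR adjusted p = 0.0581), and with the replicate block the edgeR adjusted p was 0.015. In the S6K1/S6K2 series Pole was at 14.1, 22.1 and 15.2 CPM against 14.8, 8.81 and 7.78 CPM, and number 1 did not fall (-0.71 ± 0.30, edgeR adjusted p = 0.105). The 3 subunits of polymerase delta in the list (Pold1, Pold2 and Pold3) were not called in either series.

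Of the 9 genes of the clamp, its loader, RPA and the lagging strand, 5 fell in the S6K1/S6K2 series (Pcna, Rfc5, Rpa1, Rpa2 and Lig1). In 8 of the 9 the RAS libraries were all below the EV libraries. Of all genes 12.7% were called lower and 21.7% had their RAS libraries all below EV. Pcna was at 68.7, 68.0 and 44.0 CPM in EV and 38.6, 22.7 and 24.1 CPM with RAS. The change was -1.08 ± 0.23 (edgeR adjusted p = 0.00913). Pcna in the S6K1 series was at 47.7, 34.1 and 37.6 CPM against 49.2, 35.5 and 24.0 CPM. Only number 3 was lower there, and the groups overlapped (-0.14 ± 0.27, edgeR adjusted p = 0.796). Lig1, the ligase that joins Okazaki fragments, was at 35.8, 53.9 and 33.1 CPM against 29.3, 15.8 and 13.4 CPM in the S6K1/S6K2 series. Its change was -1.07 ± 0.30 (edgeR adjusted p = 0.0275). Lig1 in the S6K1 series was at 32.5, 33.5 and 26.0 CPM against 26.9, 23.1 and 16.5 CPM, and a single RAS library overlapped with EV (-0.47 ± 0.20, edgeR adjusted p = 0.165, or 0.0269 with the replicate block). Rpa1 and Rpa2, subunits of the single-strand binding protein, fell by 0.51 and 0.90 (log2) in the S6K1/S6K2 series. Of the 4 clamp loader subunits listed, Rfc5 fell by 0.85, while Rfc2, Rfc3 and Rfc4 had values of -0.41, -0.43 and -0.57 and were not called.

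**Figure D3:**
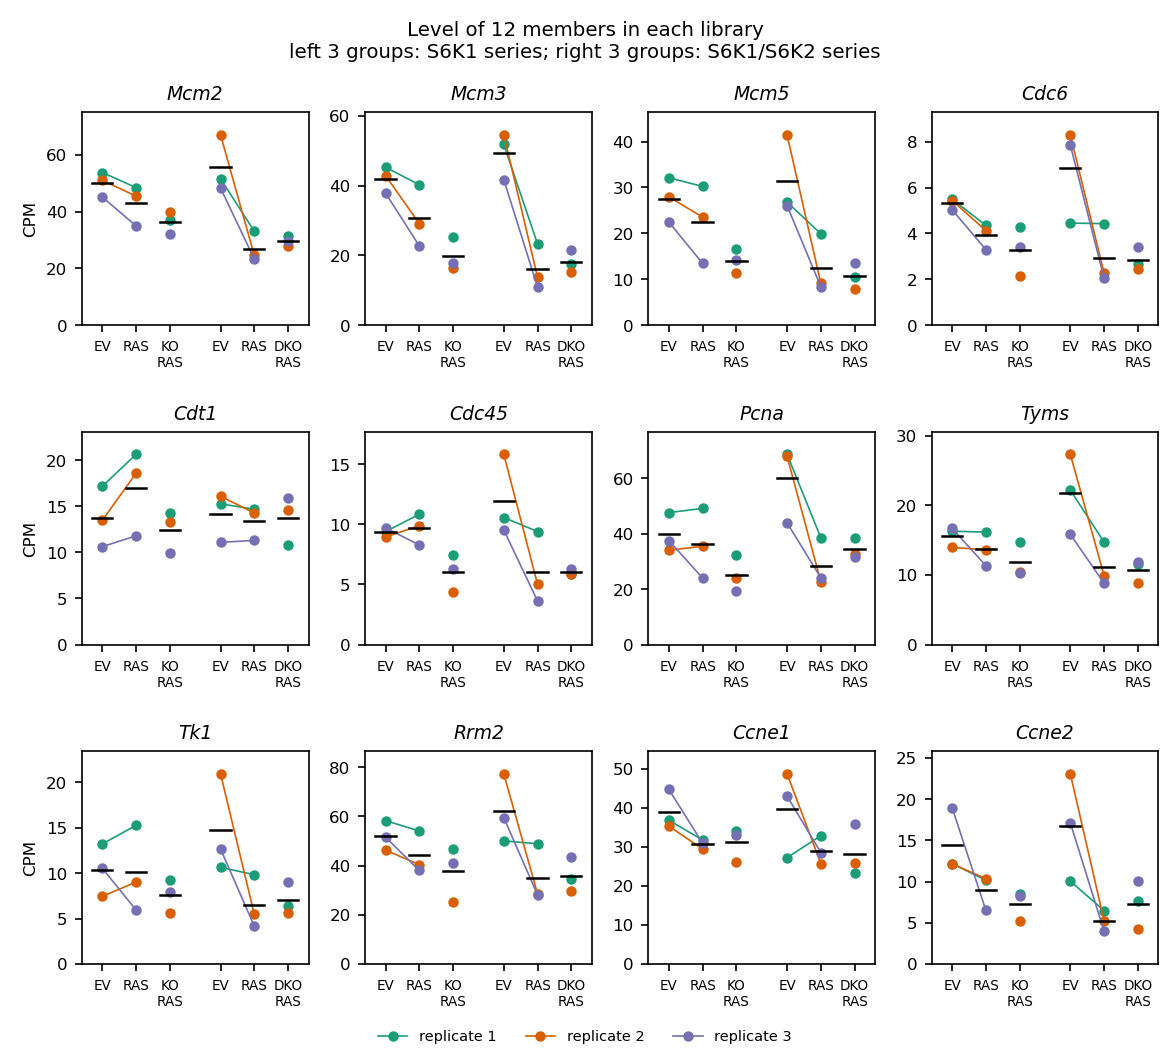
CPM of 12 members in each library (points, linear axis from 0), coloured by replicate number, with the group mean as a black bar. Coloured lines join each EV library to the RAS library of equal number. In the S6K1/S6K2 series the lines of numbers 2 and 3 fall steeply for Mcm3 and Ccne2, whereas Cdt1 stays between 11.1 and 16.1 CPM over EV and RAS.

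All 4 genes of nucleotide supply fell under RAS in the S6K1/S6K2 series, and for all 4 the groups did not overlap. The shares of all genes were 12.7% called lower and 21.7% with RAS libraries all below EV. Tyms, thymidylate synthase, was at 22.2, 27.3 and 15.8 CPM in EV and 14.7, 9.88 and 8.80 CPM with RAS. The change was -0.97 ± 0.26 (edgeR adjusted p = 0.0231, called in 13 of 16 fits). Tk1, thymidine kinase, was at 10.7, 21.0 and 12.7 CPM against 9.83, 5.48 and 4.17 CPM (-1.19 ± 0.37, edgeR adjusted p = 0.0408, called in 10 of 16 fits). Rrm1, the large subunit of ribonucleotide reductase, was at 107, 182 and 116 CPM against 97.1, 58.2 and 49.2 CPM (-0.99 ± 0.28, edgeR adjusted p = 0.0275). Rrm2, the small subunit made in S phase, was at 50.04, 77.3 and 59.4 CPM against 48.8, 28.5 and 28.1 CPM (-0.83 ± 0.25, edgeR adjusted p = 0.0364, called in 10 of 16 fits). In each of these genes WT RAS replicate 1 was the highest RAS library. Tyms in the S6K1 series was at 16.3, 13.9 and 16.7 CPM against 16.1, 13.6 and 11.3 CPM, and Tk1 at 13.2, 7.45 and 10.5 CPM against 15.3, 9.03 and 5.94 CPM. Rrm2 was at 58.3, 46.3 and 51.5 CPM against 54.0, 40.3 and 38.0 CPM in that series. These 3 genes overlapped between EV and RAS there, with edgeR adjusted p of 0.584, 0.95 and 0.556. Rrm1 was at 131, 134 and 107 CPM against 97.4, 96.3 and 65.4 CPM in the S6K1 series, without overlap (-0.52 ± 0.18, edgeR adjusted p = 0.0966, or 0.00893 with the replicate block).

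Of the 4 genes of chromatin behind the fork, Chaf1b alone was called in the S6K1/S6K2 series. Chaf1b, a subunit of the histone chaperone CAF-1, was at 19.9, 25.4 and 13.8 CPM in EV and 10.05, 5.72 and 8.34 CPM with RAS there (-1.29 ± 0.31, edgeR adjusted p = 0.015). Its S6K1 series values were 15.03, 12.6 and 12.6 CPM against 14.3, 10.7 and 7.47 CPM (-0.32 ± 0.23, edgeR adjusted p = 0.427). Chaf1a, the large subunit of the same chaperone, had a log2 fold change of -0.34 in the S6K1/S6K2 series and was not called. Uhrf1, which brings the maintenance methyltransferase to new DNA, was at 13.2, 23.6 and 18.3 CPM against 15.5, 11.7 and 8.62 CPM in the S6K1/S6K2 series. Its S6K1 series values were 20.1, 17.6 and 16.2 CPM against 17.67, 16.9 and 13.2 CPM. Uhrf1 overlapped in both (-0.63 ± 0.26, edgeR adjusted p = 0.108, and -0.18 ± 0.19, edgeR adjusted p = 0.605). Dnmt1, that methyltransferase, was at 66.7, 105 and 81.6 CPM against 65.5, 70.4 and 55.2 CPM in the S6K1/S6K2 series, and at 70.5, 108 and 86.5 CPM against 62.8, 72.4 and 75.7 CPM in the S6K1 series. It overlapped in both series (-0.40 ± 0.17, edgeR adjusted p = 0.0977, and -0.33 ± 0.17, edgeR adjusted p = 0.26), and the replicate block gave an edgeR adjusted p of 0.0251 in the S6K1 series.

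Of the E2F activators and the E-type cyclins, Ccne2 alone was called, in the S6K1/S6K2 series. E2f1, an activator of the programme, was at 40.6, 47.0 and 54.1 CPM in EV and 57.2, 47.5 and 51.9 CPM with RAS in the S6K1/S6K2 series. E2f1 in the S6K1 series was at 52.2, 43.7 and 50.1 CPM against 53.4, 49.9 and 51.4 CPM. The values of E2f1 overlapped in both series (0.14 ± 0.13, edgeR adjusted p = 0.435, and 0.08 ± 0.11, edgeR adjusted p = 0.684). E2f2, a second activator, was the member with the lowest level. It was at 1.75, 1.77 and 1.14 CPM against 1.40, 0.834 and 0.556 CPM in the S6K1/S6K2 series and at 2.92, 3.80 and 1.19 CPM against 2.56, 3.19 and 1.61 CPM in the S6K1 series. E2f2 had 6 to 51 counts per library here and was not called (edgeR adjusted p = 0.302 and 0.916). Ccne2, an E-type cyclin, was at 10.04, 23.1 and 17.1 CPM in EV and 6.48, 5.24 and 3.98 CPM with RAS in the S6K1/S6K2 series. With Prim1 it had the lowest log2 fold change of the 45 members (-1.68 ± 0.38, edgeR adjusted p = 0.0117). Ccne2 in the S6K1 series was at 12.2, 12.1 and 19.0 CPM against 10.2, 10.4 and 6.51 CPM, which were apart without passing the test (-0.68 ± 0.28, edgeR adjusted p = 0.154). Ccne1, the other E-type cyclin, was at 27.2, 48.7 and 43.0 CPM against 32.8, 25.7 and 28.5 CPM in the S6K1/S6K2 series, where number 1 rose and numbers 2 and 3 fell (-0.45 ± 0.23, edgeR adjusted p = 0.176). Ccne1 in the S6K1 series was at 36.8, 35.3 and 44.7 CPM against 31.8, 29.4 and 30.9 CPM, without overlap (-0.34 ± 0.14, edgeR adjusted p = 0.161, or 0.0255 with the replicate block).

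Members that were called in the S6K1/S6K2 series had a median of 31.4 CPM in WT EV (6.88 to 135 CPM), and the 24 others had a median of 19.7 CPM (1.55 to 84.3 CPM). The calls were thus spread over most of the range of levels. When the RAS effect of the S6K1 series was subtracted from that of the S6K1/S6K2 series over all 18 libraries, the median member differed by -0.65 (log2) and 44 of 45 values were negative. However, no member passed this test of the difference by edgeR, 0% of the 14483 genes tested did, and 17 members had an unadjusted p under 0.05 (DESeq2 called 0 members). The smallest adjusted p of a member was 0.222, for Mcm4 (-0.89 ± 0.25) and Mcm2 (-0.84 ± 0.24). The RAS effect on the members is therefore not shown to differ between the series, and the series cannot be told apart from whatever else differed between the experiments.

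To examine the kinases, KO RAS and DKO RAS were compared with WT RAS of their own series. The WT RAS libraries are the same as in the comparisons with EV. By edgeR with group alone, 0 of 45 members were called in the KO and 0 of 45 in the DKO. Of all genes, 0.00712% and 0.0144% were called lower. In the KO 41 of 45 members had a negative value, with a median of -0.32 against 0.03 for all genes, and 10 had an unadjusted p under 0.05 (DESeq2 called 0). In the DKO 19 of 45 were negative, with a median of 0.01 against 0.00 for all genes, and 0 had an unadjusted p under 0.05 (DESeq2 called 0). The smallest adjusted p of a member was 0.587 in the KO. In the KO 4 members (Cdc45, Pola1, Pole and E2f2) had all KO libraries below all WT libraries, against 4.17% of all genes. In the DKO 0 members had groups apart, against 3.05% of all genes lower and 3.02% higher.

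Pola1 was at 15.03, 15.3 and 11.9 CPM in WT RAS and at 9.82, 8.74 and 9.92 CPM in KO RAS. All KO values lay below the WT values (-0.57 ± 0.16, edgeR adjusted p = 0.587). Cdc45 was at 10.8, 9.89 and 8.27 CPM against 7.46, 4.37 and 6.25 CPM (-0.68 ± 0.22, edgeR adjusted p = 0.587). E2f2 was at 2.56, 3.19 and 1.61 CPM against 0.273, 0.690 and 1.33 CPM, with 3 to 16 counts per KO library (-1.66 ± 0.58, edgeR adjusted p = 0.587). Mcm3 was at 40.2, 29.0 and 22.7 CPM in WT RAS and 25.2, 16.4 and 17.8 CPM in KO RAS, with overlap (-0.63 ± 0.23, edgeR adjusted p = 0.588). With the replicate block, Mcm3 (edgeR adjusted p = 0.0284) and Mcm6 (0.0274) were called lower in the KO, 2 of 45 members where 3.61% of all genes were called lower. That count is near the share of all genes. The fit of the 6 compared libraries with the block called 2 members, Mcm3 and Pcna. The share of all genes in that fit is not given here. The median over the members was nearest to 0 without WT RAS replicate 1 (-0.16) and farthest from it without WT RAS replicate 3 (-0.46). Summed macrophage markers, given above, ranged lower in KO RAS than in WT RAS with some overlap, and their part in these values was not tested.

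**Figure D4:**
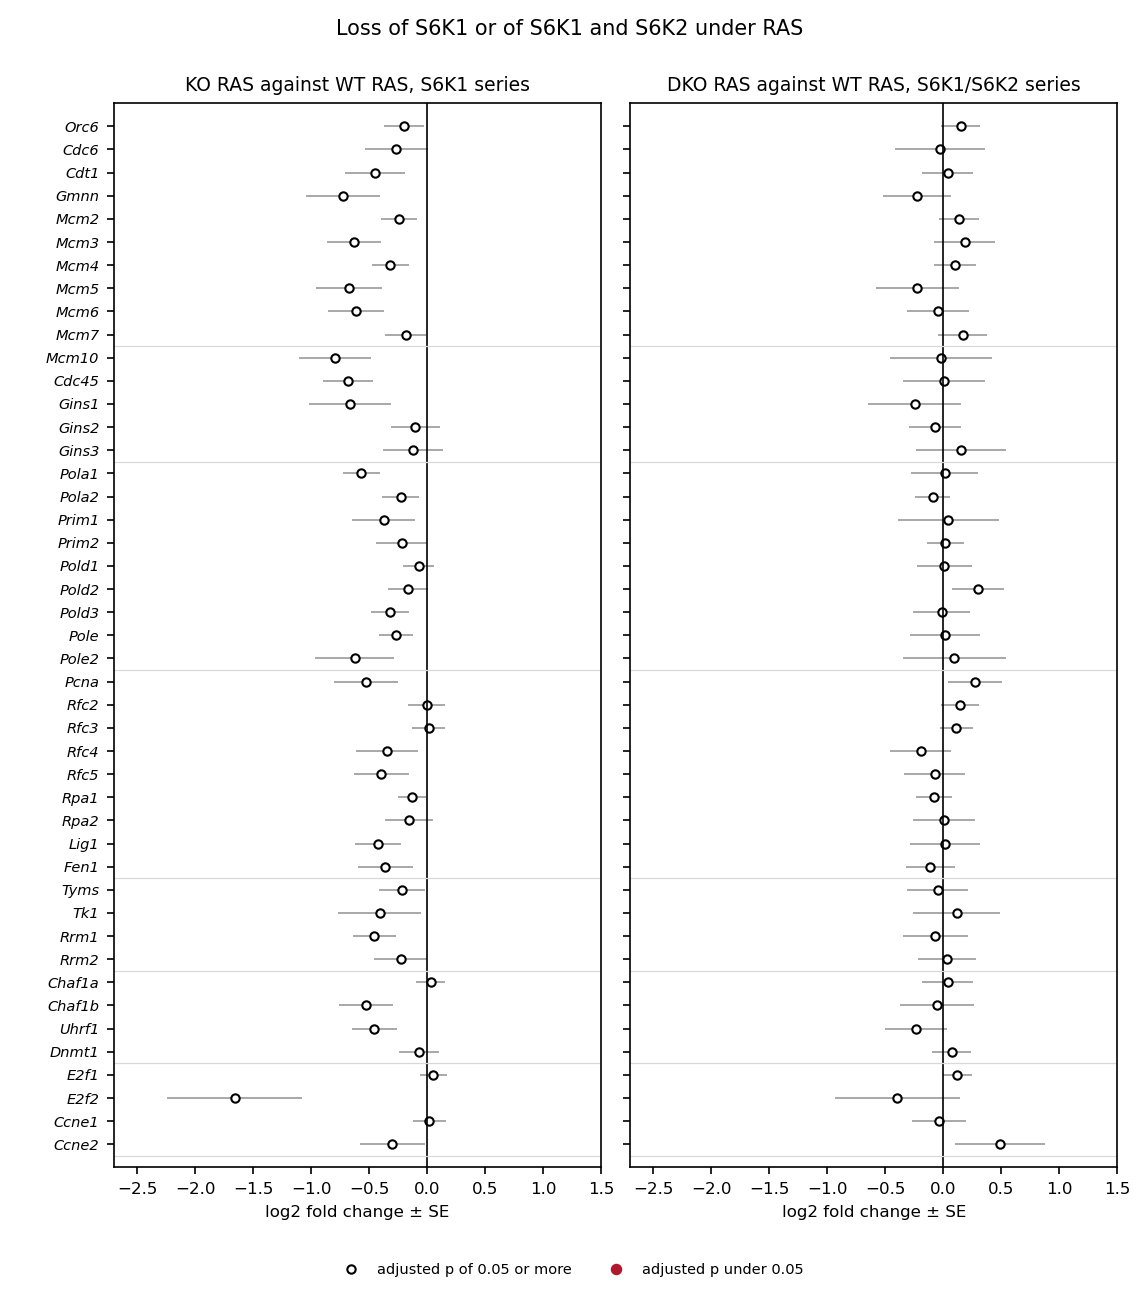
Log2 fold change of the 45 members (points, with bars of 1 SE) in KO RAS against WT RAS of the S6K1 series (left) and in DKO RAS against WT RAS of the S6K1/S6K2 series (right). Open points have an adjusted p of 0.05 or more in the edgeR fit with group alone, and all 90 points are open. On the left 41 of 45 lie below 0, on the right 19 of 45.

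In the DKO the 3 members with the smallest p were Pold2, Ccne2 and Pcna. Pold2, a subunit of polymerase delta, was at 16.9, 15.8 and 11.8 CPM in WT RAS and 13.7, 22.2 and 18.9 CPM in DKO RAS (0.30 ± 0.23). Ccne2 was at 6.48, 5.24 and 3.98 CPM against 7.63, 4.26 and 10.1 CPM (0.49 ± 0.39), and Pcna at 38.6, 22.7 and 24.1 CPM against 38.7, 32.8 and 31.8 CPM (0.27 ± 0.23). All 3 overlapped, with an edgeR adjusted p of 1.0. The difference between the loss effects of the series had a median of 0.38 (log2) over the members, with 44 of 45 values positive. No member passed the test of that difference by edgeR (0.0069% of all genes did), 2 had an unadjusted p under 0.05 (Mcm3 and Pcna) and DESeq2 called 0. The loss effect is therefore not shown to differ between the series. Summed over the 45 members, the level was 852 to 1022 CPM in KO RAS and 849 to 989 CPM in DKO RAS, against 916 to 1279 CPM and 749 to 1107 CPM in the WT RAS groups and 1165 to 1298 CPM and 1272 to 1735 CPM in the WT EV groups of the S6K1 and the S6K1/S6K2 series.

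Genes around the members were read from lists that do not overlap them. Of 45 other replication genes, 1 rose and 9 fell under RAS in the S6K1/S6K2 series (median -0.50), and 1 rose and 1 fell in the S6K1 series (median -0.11). Among all genes 13.5% were called higher and 12.7% lower in the S6K1/S6K2 series, and 7.15% and 6.09% in the S6K1 series. The counts with the replicate block were 1 higher and 10 lower in the S6K1/S6K2 series, and 3 higher and 8 lower in the S6K1 series. With the block 13.7% and 18.1% of all genes were called lower in the same order. The 8 lower genes of 45 in the S6K1 series are thus near the share of all genes. Clspn, the claspin adaptor of the replication checkpoint, fell in both series. It was at 16.98, 17.96 and 17.86 CPM in EV and 9.73, 9.81 and 6.67 CPM with RAS in the S6K1 series (-1.01, edgeR adjusted p = 0.00505), and at 13.4, 23.2 and 14.2 CPM against 10.48, 5.002 and 4.077 CPM in the S6K1/S6K2 series (-1.38, edgeR adjusted p = 0.0318, called in 12 of 16 fits). With the replicate block the edgeR adjusted p of Clspn was 0.0526 in the S6K1/S6K2 series. Rnaseh2a, the catalytic subunit of the RNase H2 that removes RNA from DNA, rose in both series (0.71, edgeR adjusted p = 0.0492, and 0.67, edgeR adjusted p = 0.015), although in the S6K1 series the call was lost in 9 of the 15 alternatives. Usp1, a deubiquitinase that acts on PCNA, fell by 1.04 (edgeR adjusted p = 0.00142) and Dscc1, a subunit of an alternative clamp loader, by 2.43 (edgeR adjusted p = 0.00515) in the S6K1/S6K2 series. Both had negative values in the S6K1 series that were not called (-0.50 and -0.41). Tipin, Slbp, Rnaseh2b, Asf1a, Dna2 and Wdhd1 were the other 6 that fell in the S6K1/S6K2 series.

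In the E2F and RB network (20 genes), 3 genes rose and 4 fell in the S6K1/S6K2 series, and 1 rose in the S6K1 series. The shares over all genes were 13.5% higher and 12.7% lower in the S6K1/S6K2 series, and 7.15% higher in the S6K1 series. The replicate block gave 3 higher and 3 lower, and 3 higher and 2 lower, in the same order. With the block 13.7% and 18.1% of all genes were called lower. The counts of this list of 20 are thus not far from the shares of all genes. E2f8, an atypical E2F that represses E2F targets, rose in both. It was at 9.47, 11.5 and 8.79 CPM in EV and 41.1, 51.2 and 67.6 CPM with RAS in the S6K1 series (2.42 ± 0.23, edgeR adjusted p = 0.000304). In the S6K1/S6K2 series it was at 7.86, 13.3 and 8.304 CPM against 96.8, 90.9 and 69.5 CPM (3.13 ± 0.21, edgeR adjusted p = 4.61e-05). Every RAS library was several times above every EV library, and E2f8 stayed at 56.3 to 85.0 CPM in KO RAS and 81.1 to 86.5 CPM in DKO RAS. E2f7, the other atypical E2F, was at 6.61, 7.90 and 7.79 CPM against 5.29, 6.39 and 4.98 CPM in the S6K1 series and 4.80, 10.3 and 7.08 CPM against 5.29, 5.12 and 2.69 CPM in the S6K1/S6K2 series. It was not called in either (edgeR adjusted p = 0.238 and 0.132). Rb1, the retinoblastoma gene, was at 20.5, 21.0 and 34.4 CPM against 50.8, 71.9 and 66.3 CPM in the S6K1/S6K2 series (1.31 ± 0.21, edgeR adjusted p = 0.00213). Rb1 in the S6K1 series was at 28.3, 35.1 and 34.8 CPM against 36.0, 39.3 and 53.0 CPM, apart but not called (0.39 ± 0.17, edgeR adjusted p = 0.192, or 0.0153 with the replicate block). E2f4, a repressor E2F, rose by 0.49 (edgeR adjusted p = 0.0166), and Rbl1, which encodes p107 and is itself an E2F target, fell by 0.89 (edgeR adjusted p = 0.0251) in the S6K1/S6K2 series. Without WT EV replicate 2, WT RAS replicate 2 or WT RAS replicate 3, the call of Rbl1 was lost. Ccna2, cyclin A2, fell by 1.64 in the S6K1/S6K2 series (edgeR adjusted p = 0.0222) and had a value of -0.53 in the S6K1 series (edgeR adjusted p = 0.258). Fbxo5 and Cdk2 were the other genes of this network called lower, with an edgeR adjusted p of 0.0612 and 0.0566 under the replicate block.

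**Figure D5:**
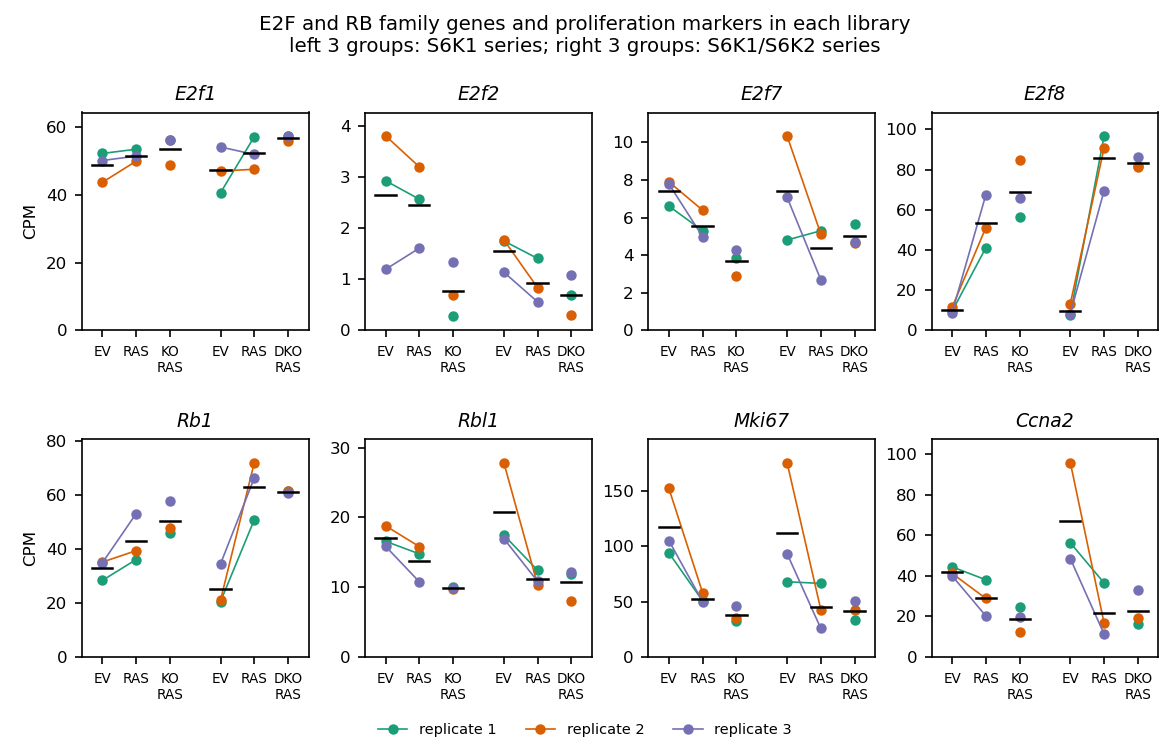
CPM of E2f1, E2f2, E2f7, E2f8, Rb1, Rbl1, Mki67 and Ccna2 in each library (points, linear axis from 0, coloured by replicate number, group mean as a black bar). E2f8 rises from 7.86 to 13.3 CPM in EV to at least 41.1 CPM in every RAS library, while E2f1 lies between 40.6 and 57.4 CPM in all 18 libraries.

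Of 14 mitosis markers, 3 fell under RAS in the S6K1 series and 7 in the S6K1/S6K2 series, and none rose. The shares called lower over all genes were 6.09% and 12.7% in the same order. With the replicate block over 9 libraries none of the 14 was called in the S6K1/S6K2 series (smallest edgeR adjusted p 0.0513, for Kif11), with 2 called when 6 libraries were fitted, whereas 6 and 8 were called lower in the S6K1 series. All 7 calls of the S6K1/S6K2 series given next were therefore lost with the block over 9 libraries. In the S6K1 series the block over 9 libraries called 18.1% of all genes lower, so its higher count of markers goes with more calls among all genes. Mki67, which marks cycling cells, was at 94.0, 152 and 105 CPM in EV and 50.6, 57.9 and 49.9 CPM with RAS in the S6K1 series, a clear gap (-1.15 ± 0.20, edgeR adjusted p = 0.00548). In the S6K1/S6K2 series Mki67 was at 67.9, 176 and 93.4 CPM against 66.5, 42.6 and 25.8 CPM (-1.32 ± 0.39, edgeR adjusted p = 0.0335). There number 1 was nearly the same in both conditions, as for Cdc6, and the call was kept in 10 of 16 fits. Top2a, the topoisomerase of replicated chromosomes, fell by 0.60 and 1.19 (edgeR adjusted p = 0.0225 and 0.0489), a call kept in 8 of 16 fits in the S6K1/S6K2 series. Cdk1 was not called in the S6K1 series (-0.09, edgeR adjusted p = 0.864) and had a value of -0.95 in the S6K1/S6K2 series (edgeR adjusted p = 0.0457, or 0.0682 with the block). Kif11, a spindle motor, fell by 0.93 and 1.42 in the same order (edgeR adjusted p = 0.0188 and 0.0297), and Plk1, Ccnb2 and Kif20a were called lower in the S6K1/S6K2 series. The list of 7 arrest genes includes the cell-cycle inhibitors Cdkn2a, Cdkn2b and Cdkn1b, and also the D-type cyclins Ccnd1 (cyclin D1) and Ccnd2, which are not inhibitors. Of the 7, 3 rose (the inhibitors Cdkn2a and Cdkn2b and the cyclin Ccnd1) and 1 fell (the inhibitor Cdkn1b) in both series. All genes gave 7.15% higher and 6.09% lower in the S6K1 series, and 13.5% and 12.7% in the S6K1/S6K2 series. The log2 fold changes were 1.004, 0.78 and 1.02 for Cdkn2a, Cdkn2b and Ccnd1 and -0.84 for Cdkn1b in the S6K1 series. They were 1.23, 1.39, 1.25 and -1.17 in the same order in the S6K1/S6K2 series. Cdkn1a and Trp53 were not called. None of the genes on these 4 lists was called in the KO or the DKO by edgeR with group alone or by DESeq2. In the KO 6 other replication genes, 2 genes of the network, 6 mitosis markers and 0 arrest genes had an unadjusted p under 0.05 in edgeR, and in the DKO 0 did.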

How the data were processed

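RNA-seq was read from 18 libraries. The authors deposited raw counts per gene, in 1 table with a column per library. Per the methods, stranded single-end reads were mapped to mm9 with TopHat and counted with HTSeq; the submitters' processing notes list STAR 2.7.1a, mm10, CASAVA and DESeq2 1.28.1. These differ, and which made the table is not settled. Symbols were found for 32589 of 55401 identifiers (99.1% of counts), and 2 listed genes (Ticrr, Adgre1) were found under older symbols.

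Groups came from the labels. The quasi-likelihood model of edgeR 4.0.16 (R 4.3.3) was fitted to the 9 libraries of a series with a term for group alone, filterByExpr (minimum count 10), TMM, two-sided tests and Benjamini-Hochberg adjustment over all genes (threshold 0.05). SEs follow from the fold change and the F statistic. Differences between series were fitted over all 18 libraries. Values per library are TMM-scaled CPM, and log2 levels add 0.5 CPM. Fitted log2 fold changes of edgeR carry its small prior count.

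Alternatives were DESeq2 1.42.0, scaling by its size factors or by the upper quartile, a fit without a filter or with 10 counts required of each library, fits of the 6 compared or of all 18 libraries, the replicate number as a block, and leaving out each library. Same-numbered libraries were checked by the correlation of deviations from the group means. In the S6K1 series it was 0.72, 0.47 and 0.68 for RAS and EV and 0.72, 0.42 and 0.63 for KO and WT. In the S6K1/S6K2 series it was 0.37, 0.29 and 0.32 for RAS and EV, but 0.27, 0.47 and -0.04 for DKO and WT. The numbers of DKO and WT were not read as pairs. The block over the 9 libraries of that series still gave them common terms. For RAS against EV, the block over 6 libraries held WT libraries alone. Replicates differed beyond sampling noise (lowest chi-square per degree of freedom 8.62). The test code was checked on simulated data.

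The members and the other gene lists were chosen with earlier results of these data known. Values in every library were given for 15 fixed members, for the member with the smallest p in each role group under RAS and for the 3 with the smallest p in each loss comparison. Cdk1, Mki67, Top2a, Ccna2, Rb1, Rbl1, E2f7 and E2f8 were named whether called or not, and other listed genes where called. Usp1, Dscc1, Clspn, Rnaseh2a and E2f4 were picked from the called ones after their values were seen, as were Mcm6, Prim1, Pole2, Prim2 and Chaf1a among the members for a sentence each. Promoters came from RefSeq (GRCm38.p6), and 8 members (Gmnn, Gins2, Ccne2, Rfc2, Pole, Mcm4, Gins1 and Prim2) had no entry.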

Additional observations from a re-analysis of the deposited data

How the results depend on the processing

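Under DESeq2, both other scalings and both other filters, the counts of called members stayed within 1.5 times of those given. The count under RAS in the S6K1/S6K2 series was 11 with the 6 compared libraries alone, where fewer libraries estimate the spread, and between 5 and 25 when 1 library was left out. With the replicate block, the count under RAS in the S6K1 series was 8 over 9 libraries and 7 over 6 libraries, and that of the KO was 2 in both; the block gave 18 of 21 in the S6K1/S6K2 series and changed no count in the DKO or in the differences between series. When 1 library was left out, values that had not passed the test turned sign for Cdc45 (-0.0404 to 0.149), Pcna (-0.417 to 0.0891), Tk1 (-0.47 to 0.22), E2f2 (-0.45 to 0.24) and Cdk1 (-0.337 to 0.0821) under RAS in the S6K1 series and for Cdt1 (-0.213 to 0.0369) in the S6K1/S6K2 series. The cause of these changes was not tested. The median over members under RAS, given as -0.14 in the S6K1 series, was -0.26 when replicate 1 of WT RAS was left out and 0.0235 when replicate 3 of WT RAS was, so its sign rested on that library. It ranged from -1.03 to -0.59 in the S6K1/S6K2 series, in the KO from -0.46 to -0.16, with the latter without WT RAS replicate 1, and in the DKO from -0.11 to 0.21, on both sides of 0, when 1 library was left out. Counts were lowest for E2f2, at 3 to 51 per library.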
